A study of Sus scrofa with 12 samples.

Results

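The genes described here encode the egg coat and the egg proteins that meet the sperm. They are the zona pellucida genes ZP2, ZP3 and ZP4, the cortical granule protease gene ASTL, the sperm receptor gene IZUMO1R (also called JUNO) and the tetraspanin gene CD9. These 6 genes were chosen by name and found by symbol among the 31908 genes listed in each library. Each matched 1 identifier. RNA was measured in 12 libraries of pig (Sus scrofa) oocytes, with 4 libraries for each duration of in vitro maturation (0h, 22h and 46h) and 20 oocytes in every library. The oocytes came from antral follicles of prepubertal gilts, collected at a slaughterhouse, and complexes of oocytes and cumulus cells were pooled before culture. All groups were cultured in the same maturation medium with gonadotropins, epidermal growth factor and follicular fluid, except that 0h oocytes were taken before culture, and all were stripped of cumulus cells with hyaluronidase. No genotype, strain or treatment other than the time in culture separates the groups. The oocytes of a library were pooled, and nothing in the sources says that the 4 replicates of a stage came from separate animals. The p-values therefore measure the spread between libraries, which may be technical.

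The zona pellucida is the glycoprotein coat that surrounds the oocyte and that sperm must bind and cross. In the pig it is built of ZP2, ZP3 and ZP4, which the oocyte secretes while it grows, and their polymers form the filaments of the coat. After fertilization, cortical granules release ovastacin, the protease encoded by ASTL, which cleaves ZP2 and so closes the coat to further sperm. IZUMO1R is a protein of the egg surface, held by a GPI anchor, that binds IZUMO1 on the sperm, and CD9 is needed in the egg membrane for fusion in the mouse.

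Values are in FPKM, fragments scaled to the length of the transcript and to the fragments of the library, as deposited. They are relative to transcript length, so levels of different genes can be set side by side, and they are relative to the library, so less RNA of 1 gene per oocyte and more of the others cannot be told apart. In pools of oocytes, fewer cells with a transcript and less of it per cell cannot be told apart either. Total FPKM per library ranged from 697468 to 802184, and the numbers of reads are unknown. Of the 12 oocyte markers looked for, 10 were matched, and their summed level was 23236 to 42377 FPKM per library, highest at 46h. BTG4 alone, a gene of maternal mRNA decay, took 26454 to 30934 FPKM of the 46h sums. Of the 10, 6 were lower at 46h than at 0h and 1, BTG4, was higher, against 39.1% and 16.8% of all genes, with a median log2 fold change of -0.79. With quantile normalization 4 were lower and 0 higher, against 25.5% and 41.0% of all genes under that scaling, with a median of -0.16 against 0.37. DDX4, 1 of the lower ones, passed the filter of 1 FPKM only through 0h. The lower ones include FIGLA, ZAR1, a maternal RNA-binding protein, which fell by 6.30, GDF9, a growth factor of the oocyte, which fell by 4.42, and OOEP, of the subcortical maternal complex, which fell by 3.57. Of 20 matched cumulus and granulosa markers, 16 were under 1 FPKM in every library, and 4, INHA and LHCGR among them, were listed at 0 throughout. A listing at 0 does not show absence in these files, where ACTB was at 0 to 0.7 FPKM. The sum of the 20 markers lay between 48.3 and 89.8 FPKM at 0h, between 57.9 and 88.9 at 22h and between 118 and 144 at 46h. VCAN, which rose by 1.18 from 0h to 46h, took 105 to 136 FPKM of the 46h sums, and the other 19 summed to 7.41 to 19.3 FPKM across all libraries. SERPINE2, which passed the filter only through 22h, had a log2 fold change of -0.80 from 0h to 46h (adjusted p = 0.000853, limma), and of -0.03 with quantile normalization, where it did not pass. FST, between 3.15 and 9.58 FPKM at 0h, and STAR were tested too, with log2 fold changes of -0.06 and 0.13 from 0h to 46h. Of the 4 cumulus and granulosa markers tested, 1 was higher and 1 lower at 46h than at 0h, and 3 were higher and 0 lower with quantile normalization, which had 41.0% of all genes higher. The part of these cells in the results was not tested. Library 0h replicate 4 stood apart, with a correlation to other 0h libraries as low as 0.934, against at least 0.961 within 22h and 0.982 within 46h.

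The promoters of the zona genes are shown first, because the oocyte factor FIGLA, whose own transcript is described further on, is known to act on zona genes through the E-box, the letters CANNTG. The sequences are from the RefSeq genome Sscrofa11.1, whereas the study names its genome as Sscrofa11 and its values carry no coordinates, so the positions are those of RefSeq genes with the same symbols. ZP2 lies on the plus strand of chromosome 3 at chr3:24863730-24877522 in 18 exons, ZP3 on the minus strand at chr3:9934760-9944924 in 8 exons, and ZP4 on the plus strand at chr14:53577138-53584544 in 12 exons. Each run below gives the 250 bases before the annotated start of the transcript, 5′ to 3′ on the strand of the gene, with every CANNTG in capitals. They span chr3:24863480-24863729 for ZP2, chr3:9944925-9945174 for ZP3 and chr14:53576888-53577137 for ZP4.
ZP2: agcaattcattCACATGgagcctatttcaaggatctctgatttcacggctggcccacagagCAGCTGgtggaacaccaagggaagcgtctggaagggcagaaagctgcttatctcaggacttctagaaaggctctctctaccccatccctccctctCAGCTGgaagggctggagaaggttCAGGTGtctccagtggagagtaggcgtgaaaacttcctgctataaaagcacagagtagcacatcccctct
ZP3: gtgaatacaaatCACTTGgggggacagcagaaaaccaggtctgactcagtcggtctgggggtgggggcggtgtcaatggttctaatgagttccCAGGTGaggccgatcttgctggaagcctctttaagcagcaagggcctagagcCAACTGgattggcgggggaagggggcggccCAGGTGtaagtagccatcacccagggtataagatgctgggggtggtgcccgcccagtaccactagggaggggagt
ZP4: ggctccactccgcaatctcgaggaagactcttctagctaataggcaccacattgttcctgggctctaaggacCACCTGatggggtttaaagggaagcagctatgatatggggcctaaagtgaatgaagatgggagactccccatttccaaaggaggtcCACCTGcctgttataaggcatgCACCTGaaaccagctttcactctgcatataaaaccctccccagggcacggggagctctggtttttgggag

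ZP2 and ZP3 held 4 such motifs each and ZP4 held 3. The motif reads the same on both strands in this form, so 1 search covers both. Of 19531 promoters of the same length, 61.9% held at least 1 CANNTG and 10.3% held 3 or more. The more specific form CAGGTG, or CACCTG when read on the other strand, was found at position -70 of ZP2, at -157 and -75 of ZP3 and at -178, -92 and -70 of ZP4, counted from the first base of the motif to the start of the transcript. These forms are contained in CANNTG, and 19.5% of all promoters held at least 1. TATAAA, searched on the strand of the gene, began at -30 in ZP2 and at -44 in ZP4, was not found in the window of ZP3, and was found in 6.26% of promoters. ASTL had 1 CANNTG, IZUMO1R 2 and CD9 1, and of these only the motif of CD9 was of the more specific form. These matches are letters in a window and not measured binding sites.

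The ends of the zona transcripts are shown because reverse transcription was primed from the poly(A) tail, whose signal is AATAAA. The windows of 30 bases are taken from chr3:24877471-24877500 for ZP2, chr3:9934761-9934790 for ZP3 and chr14:53584515-53584544 for ZP4, 5′ to 3′ on the strand of the gene, with AATAAA in capitals.
ZP2: tttggattttcaAATAAAagtggaagtaag
ZP3: tgtctgcttcccAATAAAaggagaaacatg
ZP4: ccaaatgtgtcAATAAAaccAATAAAacaa

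In ZP3 the AATAAA overlaps the TAA stop codon of the reading frame, so the signal starts before translation ends. In ZP2 and ZP4 it lies after the stop codon. The annotated 3′ UTR was 14 bases long in ZP3, 40 in ZP4 and 52 in ZP2, against a median of 824 bases over 17817 genes with one. Only 0.84% of these genes had a shorter 3′ UTR than ZP3, 2.83% than ZP4 and 3.83% than ZP2. IZUMO1R had 89 bases, CD9 434 and ASTL 1017, so the members with short 3′ UTRs include IZUMO1R but not ASTL. Of all 19535 transcripts, 47.2% held AATAAA within the last 40 bases, searched on the strand of the transcript, as did those of all members except IZUMO1R. ZP2 overlaps TMEM159 on the genome, and no other member overlaps a gene. Whether the counting could part reads of ZP2 from those of TMEM159 is not given in the sources used here.

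ZP4 had the highest mean of the members at every stage, although ZP3 was above it in 22h replicate 3. At 0h its level was 7808, 6778, 5210 and 2665 FPKM in replicates 1 to 4, at 22h 3668, 4718, 6747 and 6363, and at 46h 1659, 1364, 3523 and 1912. The 0h and 22h libraries overlapped, and 46h replicate 3 lay above the lowest library of 0h, so that 46h and 0h overlapped while 46h and 22h did not. With means of 5615 ± 2238, 5374 ± 1438 and 2114 ± 965 FPKM (SD, n = 4), ZP4 was among the 39 most abundant genes in every 0h and 22h library and among the 76 most abundant at 46h.

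ZP3, the partner of the filaments, had the widest range of the members. Its level at 0h was 4337, 3292, 2760 and 1481 FPKM in replicates 1 to 4, at 22h 2502, 3747, 7741 and 5807, and at 46h 59.5, 71.7, 199 and 51.5. Every 46h library was far below every library of the other stages, while 0h and 22h overlapped. The means were 2967 ± 1188, 4949 ± 2307 and 95.5 ± 69.7 FPKM (SD, n = 4). Its best rank within a library went from 16 at 22h to 378 at 46h.

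ZP2, the zona protein that ovastacin cleaves, had the most even levels of the zona genes among replicates. They were 2102, 1683, 1814 and 1917 FPKM at 0h, 2177, 1600, 1703 and 1789 at 22h, and 391, 433, 770 and 534 at 46h. The coefficient of variation was 9.43% at 0h, against 40.02% for ZP3 and 39.9% for ZP4 at the same stage. The 46h libraries did not overlap those of either earlier stage, and the 46h library with the highest level was replicate 3, as for ZP3 and ZP4. The means were 1879 ± 177, 1817 ± 252 and 532 ± 170 FPKM (SD, n = 4).

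**Figure D1:**
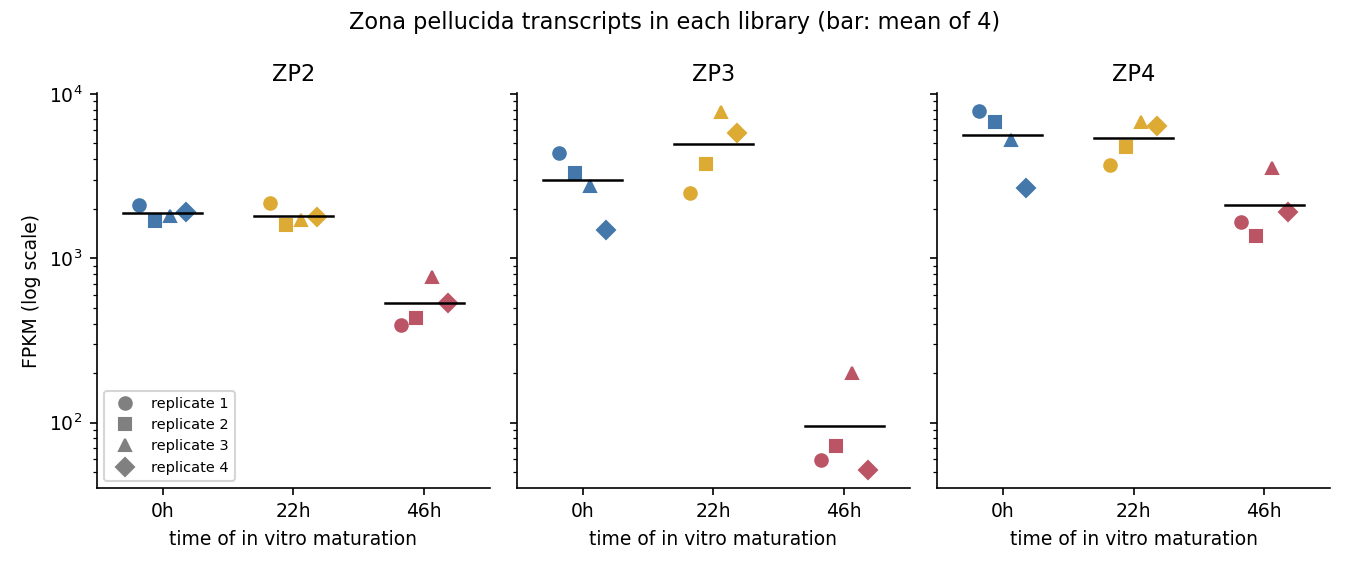
FPKM of ZP2, ZP3 and ZP4 on a log axis against time of in vitro maturation, with 1 marker per library, the marker shape giving the replicate number and the bar the mean of 4. The 46h libraries of ZP3 lie between 51.5 and 199 FPKM, below every 0h and 22h library, while ZP4 at 46h reaches 3523 FPKM and overlaps 0h.

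ASTL was present at low levels that differed between all stages. It was listed at 1.92, 1.83, 0.83 and 1.14 FPKM at 0h, at 2.46, 3.83, 11.6 and 5.21 at 22h, and at 0.11, 0.1, 0.18 and 0.1 at 46h. No library of 1 stage overlapped those of another. The highest value of 22h, in replicate 3, was in the library that also had the highest ZP3. The means were 1.43 ± 0.53, 5.78 ± 4.05 and 0.122 ± 0.0386 FPKM (SD, n = 4).

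IZUMO1R was also low. It was listed at 0.97, 1.39, 3.32 and 1.71 FPKM at 0h, at 0.37, 0.66, 2.13 and 1.49 at 22h, and at 0.16, 0.31, 0 and 0.6 at 46h. The 0h libraries did not overlap the 46h libraries, while 22h overlapped both. Its mean over the 12 libraries was 1.09 FPKM, just above the minimum of 1 FPKM for a gene to be tested.

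CD9 was at or near 0 in every library. It was listed at 0.27, 0, 0.31 and 0 FPKM at 0h, at 0, 0.25, 0.23 and 0 at 22h, and at 0 in all 4 libraries of 46h. With a mean of 0.0883 FPKM it was not in the fit, and an exact two-sided permutation test gave p = 0.657 for 22h against 0h and p = 0.429 for 46h against each earlier stage. Low values recur in steps that differ between libraries. With each library's step taken relative to that of 0h replicate 1, the 4 values of CD9 above 0 came to 0.270 to 0.291, close to 1 level. The stage means and tests of CD9 rest on these 4 values, and the number of fragments behind them is unknown. Of genes used in every cell, ACTB was at 0 to 0.7 FPKM in these files, whereas GAPDH was at 11.6 to 29.7 and RPLP0 at 107 to 374, so a listing at 0 does not show that the transcript was absent. CD81, the related tetraspanin that also takes part in fusion, was between 2.57 and 16.2 FPKM at 0h, between 6.34 and 8.35 at 22h and between 5.25 and 7.77 at 46h.

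**Figure D2:**
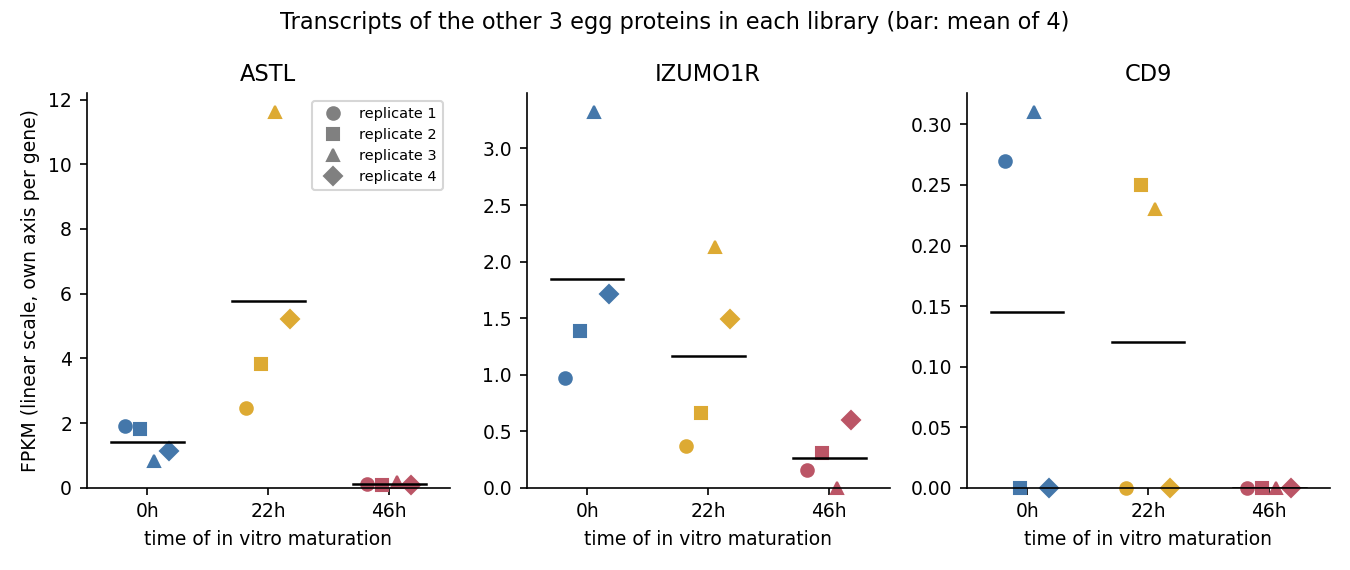
FPKM of ASTL, IZUMO1R and CD9 against time of in vitro maturation, on a linear axis of its own for each gene, with 1 marker per library, the shape giving the replicate number and the bar the mean of 4. ASTL peaks at 22h with 11.6 FPKM in replicate 3, IZUMO1R falls to at most 0.6 FPKM at 46h, and CD9 is listed at 0 in 8 of 12 libraries.

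The order of the levels differed between stages. At 0h it was ZP4, ZP3, ZP2, IZUMO1R, ASTL and CD9. The ranges of ZP4 and ZP3, of ZP3 and ZP2 and of IZUMO1R and ASTL overlapped, although ZP4 was above ZP3 within each of the 4 libraries. At 22h ZP4 was above ZP3 in 3 of 4 libraries and their ranges overlapped. ASTL stood above IZUMO1R in all 4 libraries of 22h without overlap, and ZP3 stood above ZP2. At 46h ZP3 had dropped below ZP2, so that ZP4, ZP2 and ZP3 followed each other without overlap, and the ranges of IZUMO1R and ASTL overlapped again.

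In meiotic resumption, from 0h to 22h, 1 member changed. ASTL rose by a log2 fold change of 1.33 (SE 0.304, adjusted p = 0.0046, limma with Benjamini-Hochberg adjustment over 7013 genes), higher in all 4 libraries of 22h than in any of 0h. A gene passes here when its adjusted p is under 0.05 and its fold change over 1.5. Of all genes tested, 26.7% passed in this comparison, 7.84% higher and 18.9% lower, and 1 of the 5 members tested passed. ASTL passed the filter of 1 FPKM only through the 22h libraries, with a mean of 0.776 FPKM over the other stages, so its call is not independent of the filter. The fold change is on the scale of log2(FPKM + 1) and understates the change of a gene this low.

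The zona genes did not pass from 0h to 22h. ZP3 had a log2 fold change of 0.71 with a 95% interval from -0.24 to 1.67 (adjusted p = 0.24, limma). ZP2 had -0.05 (-0.49 to 0.38) and ZP4 0.00 (-0.74 to 0.75). IZUMO1R had -0.41 (-1.01 to 0.19). Without 0h replicate 4, ZP3 had 0.41 and ZP4 -0.32. The intervals of ZP3, ZP4 and IZUMO1R still include changes larger than the fold change threshold.

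In the completion of maturation, from 22h to 46h, the 3 zona genes were lower. ZP3 fell by 5.78 on the log2 scale, 54.9-fold (SE 0.445, adjusted p = 1.11e-07, limma), which was the 13th lowest change of 7013. ZP2 fell by 1.81 (SE 0.202, adjusted p = 4.60e-06, limma), ZP4 by 1.40 (SE 0.348, adjusted p = 0.00424) and ASTL fell by 2.42 (SE 0.304, adjusted p = 1.52e-05). Under alternative settings the log2 fold change of ASTL ranged from -4.505 to -1.821 and stayed past the threshold. Of all genes tested 42.4% passed, 9.87% higher and 32.6% lower. IZUMO1R passed the filter only through the 0h libraries, with a mean of 0.715 FPKM over the other stages, so its calls, like those of ASTL, are not independent of the filter. It fell by 0.72 with an adjusted p of 0.0474 by limma, next to the threshold, and its call was lost when 0h replicate 2, 22h replicate 3 or 4, or 46h replicate 1, 2 or 3 was left out (adjusted p from 0.0522 to 0.153). The call of IZUMO1R was also lost with no filter, median-of-ratios scaling (log2 fold change -0.60), quantile normalization (-0.15) or a fold threshold of 2. Its log2 fold change ranged from -1.852 to -0.1549 under alternative settings.

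Over the whole of maturation, from 0h to 46h, the 3 zona genes were again lower, as were ASTL and IZUMO1R. ZP3 fell by 5.07 on the log2 scale, 33.5-fold (adjusted p = 2.04e-07, limma), ZP2 by 1.86 (1.73e-06), ZP4 by 1.40 (0.00284), ASTL by 1.09 (0.00618) and IZUMO1R by 1.13 (0.00289). Here 55.9% of all genes passed, 16.8% higher and 39.1% lower, and all genes had a median log2 fold change of -0.25. Without 0h replicate 4, the library that stood apart, the log2 fold changes of ZP3 and ZP4 were -5.37 and -1.72. With quantile normalization ASTL (-0.33) and IZUMO1R (-0.39) did not pass. With a pseudocount of 0.1 in place of 1, ASTL had -2.73 and IZUMO1R -2.59. ZP3 was the 95th lowest of 7013, ZP2 the 1132nd and ZP4 the 1626th. The last 2 comparisons share the 46h libraries, and the first and the last share those of 0h, so their values are not independent.

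**Figure D3:**
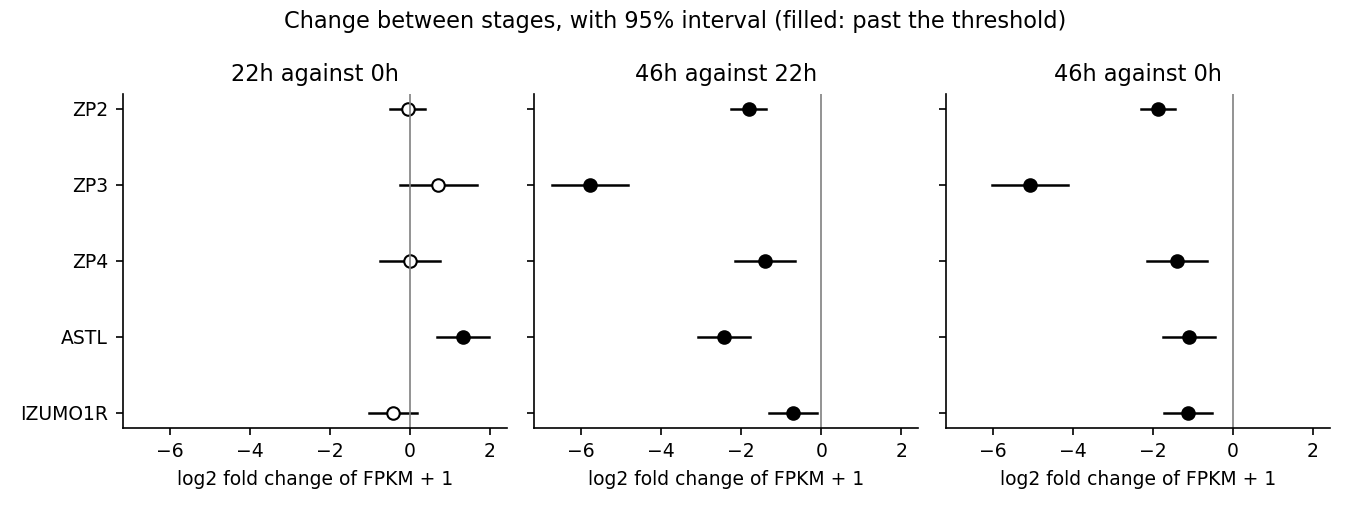
log2 fold change of FPKM + 1 for the 5 members tested in the 3 comparisons, with 95% intervals from limma over 12 libraries. Filled markers pass an adjusted p of 0.05 and a fold change of 1.5. ZP3 lies at -5.78 and -5.07 in the comparisons of 46h, and ASTL is the only filled marker from 0h to 22h, at 1.33.

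ZP3 took a smaller share of the zona transcripts in every 46h library than in any earlier one. Together ZP2, ZP3 and ZP4 took 1.44% ± 0.535 of total FPKM at 0h, 1.65% ± 0.558 at 22h and 0.345% ± 0.151 at 46h (SD, n = 4). Of their sum, ZP3 took 27.8% ± 2.49 at 0h, 39.2% ± 7.50 at 22h and 3.29% ± 1.05 at 46h. ZP4 took 52.4% ± 5.93, 44.5% ± 2.25 and 76.7% ± 2.61, and ZP2 19.8% ± 8.10, 16.3% ± 6.86 and 20.05% ± 2.72.

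A ratio of the FPKM of 2 genes within a library cancels the scaling of that library. The log2 ratios tested were taken of FPKM + 1, so those with ASTL, IZUMO1R or CD9 still depend on it. There were 1.80, 2.06, 1.89 and 1.80 units of ZP4 FPKM for each unit of ZP3 in replicates 1 to 4 at 0h, 1.47, 1.26, 0.872 and 1.10 at 22h, and 27.9, 19.0, 17.7 and 37.1 at 46h. The 3 stages did not overlap, and ZP3 was higher relative to ZP4 in every 22h library than in any of 0h. The log2 ratio of ZP3 to ZP4 differed by 0.71 between 22h and 0h, by -4.38 between 46h and 22h and by -3.67 between 46h and 0h. The log2 ratio of ZP2 to ZP3 was higher at 46h by 3.97 than at 22h and by 3.20 than at 0h, without overlap, and its 0h and 22h libraries overlapped. The log2 ratio of ZP2 to ZP4 overlapped in all comparisons, with differences of -0.06, -0.41 and -0.47 for 22h against 0h, 46h against 22h and 46h against 0h. Each comparison without overlap had p = 0.0286 in an exact two-sided permutation test, the smallest p that 4 against 4 libraries allow. Adjusted over 45 tests, of 15 pairs of members in 3 comparisons, this became 0.0612, so 0 of 45 passed. With this smallest p, passing depends on how many of the 45 tests reach it, so the 0 does not show unchanged ratios.

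**Figure D4:**
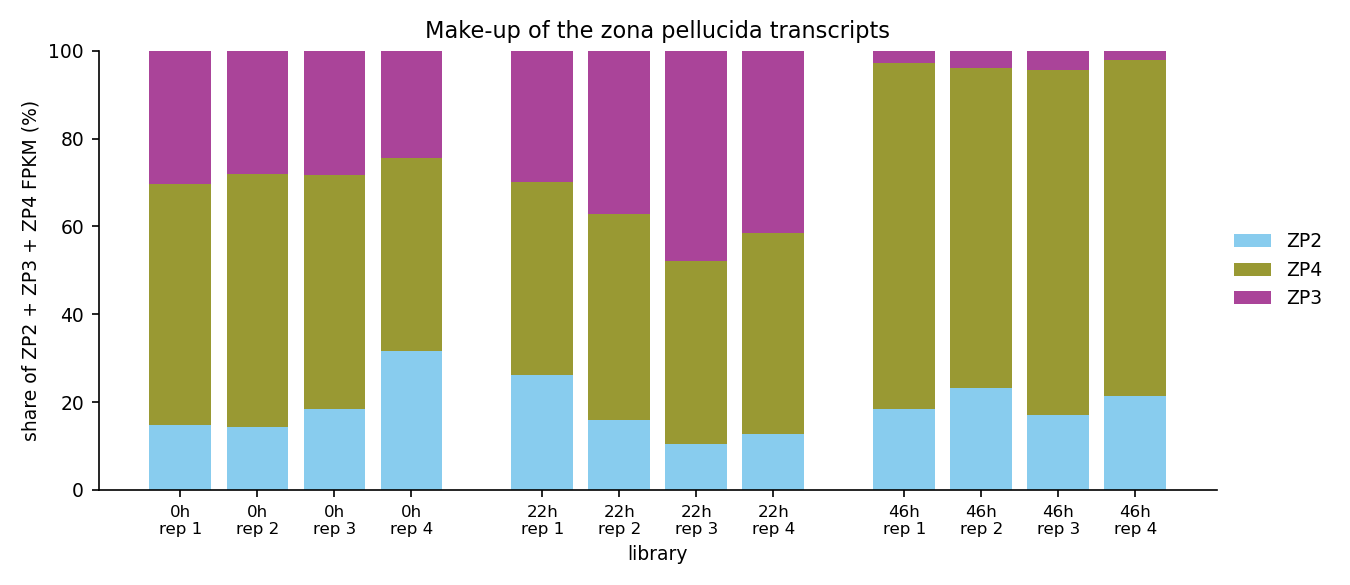
Share of ZP2, ZP4 and ZP3 in their summed FPKM (%), as stacked bars, 1 per library, grouped by stage. ZP3 takes 24.4% to 47.8% in the 0h and 22h libraries and 2.06% to 4.44% in those of 46h, and the share of ZP2 at 46h, 17.1% to 23.2%, lies within that of 0h.

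The gene lists that follow are read against the 39.1% of all genes that were lower and the 16.8% that were higher at 46h than at 0h, and their counts with quantile normalization against 25.5% and 41.0%. The fourth egg coat gene, ZP1, had no match in the names used here. Of 6 tested egg membrane proteins of sperm binding and fusion, 2 were lower, near the 39.1% of all genes, and 0 higher at 46h than at 0h. These were the member IZUMO1R, which passed the filter only through 0h, and ITGB5, an integrin subunit, which fell by 3.86 (adjusted p = 6.84e-11, limma). ITGB5 was between 18.6 and 21.9 FPKM at 0h, between 12.9 and 17.3 at 22h and between 0.26 and 0.66 at 46h. The integrin ITGAV, under the filter, was at 0.475 ± 0.151 FPKM at 0h, 0.77 ± 0.249 at 22h and 1.6 ± 0.469 at 46h (SD, n = 4). It was higher at 46h than at each earlier stage without overlap (exact two-sided permutation test, p = 0.0286, the smallest possible, not adjusted). Its mean reached 1 FPKM only at 46h. ITGAV was named out of all listed genes under the filter, several of which had the same p in the other direction. From 0h to 46h these included CD151 (1.05 to 0.02 FPKM), STX4 (0.945 to 0.035) and TCF3 (0.39 to 0.0475). CD81 had a log2 fold change of -0.06 (adjusted p = 0.886, limma). The list's median was -0.20, close to the -0.25 of all genes, and with quantile normalization 1 was lower and 2 higher, near the 25.5% and 41.0% of all genes.

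Of 10 tested genes of cortical granule content and release, 8 were lower and 0 higher at 46h than at 0h, against 39.1% and 16.8% of all genes, with a median of -1.11, and 5 were lower and 1 higher with quantile normalization, against 25.5% and 41.0%. The member ASTL, 1 of the 8, passed the filter of 1 FPKM only through 22h. Its part in the counts of this list, here and from 0h to 22h, is not independent of the filter. The largest changes were those of CALR, a chaperone of the endoplasmic reticulum also found in cortical granules, which fell by 4.37 (adjusted p = 2.66e-09, limma), and MYO5A, a myosin motor, which fell by 4.25. PADI6, a protein of the oocyte's cytoplasmic lattices, fell by 2.48, and STXBP3, which binds syntaxins, by 1.60. CALR was also lower at 22h than at 0h, by 2.60, while ASTL was higher, and these were the 2 of 10 genes of this list that passed from 0h to 22h, against 26.7% of all genes. CALR was between 81.7 and 153 FPKM at 0h, between 11.6 and 27.9 at 22h and between 4.23 and 5.35 at 46h.

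Of 5 tested genes that process zona proteins, 2 were lower and 1 higher at 46h than at 0h, near the 39.1% and 16.8% of all genes. FUT8, a fucosyltransferase, fell by 1.36, and had -0.68 with quantile normalization, still past the threshold. B4GALT1, a galactosyltransferase, fell by 0.67 (but had a log2 fold change of 0.07 with quantile normalization). In contrast, MGAT4A, an N-acetylglucosaminyltransferase, rose by 0.60 (adjusted p = 0.00401, limma). MGAT4A was under the fold threshold as TPM (0.49) and without 0h replicate 1 (0.50) or 4 (0.58), as was B4GALT1 without 0h replicate 4 (-0.55). Of 13 tested genes of GPI anchor synthesis and attachment, the modification that holds IZUMO1R, 6 were lower and 1 higher at 46h than at 0h, near the 39.1% of all genes for the lower ones. PIGC fell by 5.16, PIGP fell by 4.43, DPM1, which makes the mannose donor, by 3.24 and PIGH by 1.99. With quantile normalization the list of zona protein processing had 1 lower and 3 higher, against 25.5% and 41.0% of all genes. The GPI anchor list had 6 lower and 6 higher of 13. The higher counts of both lists rose with the share of all genes. The lower count of the GPI anchor list stayed at 6, while that share of all genes went from 39.1% to 25.5%.

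Of 11 tested tetraspanins, the family of CD9, 7 were lower and 0 higher at 46h than at 0h, against 39.1% and 16.8% of all genes. TSPAN31 fell by 3.60, TSPAN13 fell by 2.62, CD63, a tetraspanin of late endosomes, by 1.34 and TSPAN14 by 1.21. With quantile normalization 3 were lower and 1 higher, against 25.5% and 41.0% of all genes. TSPAN14, which passed the filter of 1 FPKM only through 0h, was then not past the threshold.

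Of 6 tested transcription factors known for zona genes and the oocyte, 5 were lower and 0 higher at 46h than at 0h, against 39.1% and 16.8% of all genes, with a median of -1.69. With quantile normalization 4 were lower and 0 higher, against 25.5% and 41.0% of all genes, with a median of -1.08 against 0.37. FIGLA was between 39.6 and 69.0 FPKM at 0h, between 27.6 and 45.6 at 22h and between 1.04 and 1.80 at 46h. It fell by 4.43 from 0h to 46h (SE 0.206, adjusted p = 3.44e-10, limma), and its 0h and 22h libraries overlapped. NOBOX, a homeobox factor of the oocyte, fell by 2.58, LHX8 by 2.01 and TBPL2, the oocyte's TATA-binding protein, by 1.38. With quantile normalization TBPL2 had -0.69, NOBOX -1.86 and FIGLA -3.83, each still past the threshold. Of the sperm proteins that meet the egg, 1 of 11 matched was abundant enough to be tested. This was ZPBP2, a zona-binding protein of the acrosome, between 1.26 and 2.29 FPKM at 0h, between 0.72 and 1.7 at 22h and between 1.93 and 3.35 at 46h, with a log2 fold change of 0.41 from 0h to 46h (adjusted p = 0.0802, limma). It passed in that comparison with median-of-ratios scaling (0.69) and quantile normalization (1.11), and rose by 0.78 from 22h to 46h (adjusted p = 0.00459, limma).

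The genes most like each member over the 12 libraries, by Pearson correlation of log2(FPKM + 1), are given as a description. The libraries fall into 3 stages, so any pair of genes that is low at 46h correlates. ZP2 was most like SEC11C (r = 0.984), KANSL2 and ATP6V1B2, ZP3 like CCDC115 (r = 0.986), ARL6 and PSMD6, and ZP4 like DDX1 (r = 0.981), CAP1 and ACOT6. ASTL was most like TMED3 (r = 0.951), YIPF4 and HACL1, and IZUMO1R like ESYT3 (r = 0.885), MCAT and SGTA. CD9, at 0 in most libraries, reached r = 0.805 with EPB41L3, followed by NFATC3 and GABARAP. CCDC115 went from 124 FPKM at 0h to 198 at 22h and 26.2 at 46h on average, and TMED3 from 1.85 to 3.96 and 0.782.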

How the data were processed

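The authors aligned trimmed reads to Sscrofa11 with STAR and made gene values with RSEM. The deposited FPKM values, 1 per Ensembl gene and library, were used as they are, rounded to 2 decimals. Their own tests used counts, which were not analysed here, so limma takes the place of DESeq2 with the study's thresholds. Symbols were matched through a table of gene names that named 15029 of 31908 identifiers. The main test was limma 3.58.1 under R 4.3.3 (lmFit, eBayes with trend) on log2(FPKM + 1), with all 12 libraries and no covariate but stage. It covered 7013 genes whose mean reached 1 FPKM, two-sided, with Benjamini-Hochberg adjustment. Genes below that and ratios within a library were compared by exact permutation tests. Depth is unknown and no counting interval is given. SMART-Seq2 primes from the poly(A) tail, so a transcript's tail can enter its value, which was not tested. From each gene list, the genes named are up to 4 that passed from 0h to 46h with the largest change, sperm genes whose mean reached 1 FPKM, and the 3 genes most like each member. CD81 and the other values named outside this rule were chosen after their values were seen. Members and lists were chosen with earlier results of these data known. Motif searches used RefSeq genes, 1 transcript each. The fit was tested on simulated data. Alternatives were other scalings, filters, pseudocounts and thresholds, a fit of 2 stages at a time, no trend, a replicate block and each library left out. Python 3.11.15 was used for tables (pandas 2.3.3, numpy 2.4.6, scipy 1.17.1) and figures (matplotlib 3.10.9).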

Additional observations from a re-analysis of the deposited data

Results flagged for a closer look

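ASTL in 46h replicate 3 stood apart from the other 46h libraries, at 0.18 FPKM against 0.1 to 0.11. This was 1 of 17 groups of 4 libraries tested for a lone extreme value, and chance alone gives about 1 in 20. That rate was not tested for values this low, which recur in steps that differ between libraries. Relative to the step of 0h replicate 1, those of 46h replicates 1 to 4 were 0.855, 0.8266, 0.7363 and 0.7917. The number of fragments behind these ASTL values is unknown.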

How the results depend on the processing

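Of 354 fold changes of members under alternative settings, 342 kept their side of the threshold and 12 were no longer past it. The sign differed in 8, all from 0h to 22h and none past the threshold, 3 of ZP2 and 5 of ZP4. With a minimum mean of 5 FPKM, which leaves out ASTL and IZUMO1R, 0 members were higher at 22h than at 0h, and 3 were lower at 46h than at 22h and 3 than at 0h. With quantile normalization 3 were lower at 46h than at 0h, since ASTL (-0.33, adjusted p = 0.351, limma) and IZUMO1R (-0.39, adjusted p = 0.195) lost their calls. Without 1 library in turn, 1 member was higher at 22h than at 0h throughout, 4 to 5 were lower at 46h than at 22h, and 5 than at 0h. The log2 ratio of ZP2 to ZP3 at 46h against 0h was then 2.97 to 3.51 and that of ZP4 to ZP3 3.47 to 3.82. The fall of IZUMO1R from 22h to 46h was lost without 0h replicate 2 (adjusted p = 0.0522, limma), 22h replicate 3 (0.153) or 4 (0.117), or 46h replicate 1 (0.0964), 2 (0.0762) or 3 (0.123), with no filter (0.133), median-of-ratios scaling (0.0683), quantile normalization (0.642) or a fold threshold of 2. The cause was not tested. From 0h to 46h, all genes had a median change of -0.25 (log2) as deposited, -0.35 as TPM, 0.06 when scaled by median of ratios and 0.37 after quantile normalization, and ZP2, ZP3 and ZP4 stayed lower under each. Higher genes made up 30.1% of those past the threshold as deposited and 25.6%, 46.9% and 61.7% under those scalings.

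The replicate numbers were also fitted as a block. Same-numbered libraries correlated at -0.466 to 0.381 in their deviations from the stage means, 3 of 12 over 0.1, all 3 between 46h and 22h (0.127 to 0.381). In 4 of these 12 comparisons, the best match among the 4 libraries of the other stage had the same number. Not every pair was over 0.1, so the numbers were not taken to pair the samples. The block changed no call of a member. For the ratios, 4 pairs allow no p under 0.125 in a sign-flip test.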
